A study of Mus musculus with 2 samples.

Results

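Chromatin accessibility was described at 7 genes of the corticosteroid system, Nr3c1, Nr3c2, Crhr1, Hsd11b1, Fkbp5, Sgk1 and Tsc22d3, out of 21884 protein-coding genes with a unique symbol in GENCODE M21. The rule names the genes and uses no measured value, although it was written with earlier results of these data known. Accessibility was measured by DNase-seq, in which the nuclease DNase I cuts open chromatin, in 2 libraries of mouse hippocampus. Each was made from B6CASTF1/J mice, the F1 cross of C57BL/6J and CAST/EiJ, at an age of 14 days, and each label names 3 females. They are biological replicates 1 and 2 of 1 group under the same donor identifier, so there was no comparison between conditions. The labels do not say whether the animals or pools were separate, and the spread between the libraries may be technical.

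Corticosterone, the main glucocorticoid of mice, acts in the brain through a pair of nuclear receptors. The mineralocorticoid receptor (Nr3c2) binds it with high affinity and is abundant in hippocampal neurons, and the glucocorticoid receptor (Nr3c1) binds it with lower affinity and is occupied during stress. Both bind DNA at glucocorticoid response elements, inverted repeats of a hexamer separated by a short spacer. The hippocampus takes part in the negative feedback of corticosteroids on the stress axis.

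Peaks numbered 115699 in replicate 1 and 167829 in replicate 2, with a median signal of 0.821 and 0.485. Signal is the authors' value for each peak, and its scaling is not stated, so the depth in reads is unknown. Levels are therefore read within a library, as the signal or as its percentile among all peaks of that library. A number given for a peak with no unit is its signal, and open means that a peak was called there. A promoter peak in both libraries was found at 63.2% of all protein-coding genes, the share to set beside the marker counts. Both libraries had promoter peaks at all 10 markers of hippocampal excitatory neurons and at all 6 astrocyte markers. Of the markers of inhibitory neurons 2 of 5 did, of the oligodendrocyte lineage 3 of 5, of microglia 3 of 5 and of endothelium 1 of 5. The same count was 0 of 4 for choroid plexus, 0 of 4 for liver, 0 of 4 for matched anterior pituitary markers and 2 of 5 for adrenal cortex, where Star and Nr5a1 were open. In whole tissue, fewer nuclei with an open site and weaker cutting per nucleus cannot be told apart.

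Both libraries had a promoter peak, meaning a peak within 500 bp of an annotated start, at all 7 genes, against 63.2% of all protein-coding genes. Their transcript starts, chained at gaps of up to 500 bp, formed 35 alternative promoters, numbered along each gene from its 5′ end. Of these, 19 had a peak in both libraries, 12 in neither, 2 in replicate 1 only and 2 in replicate 2 only. The 6 genes with several promoters had 34 of them. Of the 34, 20 (58.8%) had a peak in replicate 1 and 20 (58.8%) in replicate 2, against 34.7% and 33.8% of all 43709 alternative promoters of multi-promoter genes. In both libraries 18 (52.9%) did, against 30.8%. Alternative promoters of 1 gene can lie close enough to share a peak, so they are not independent.

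**Figure D1:**
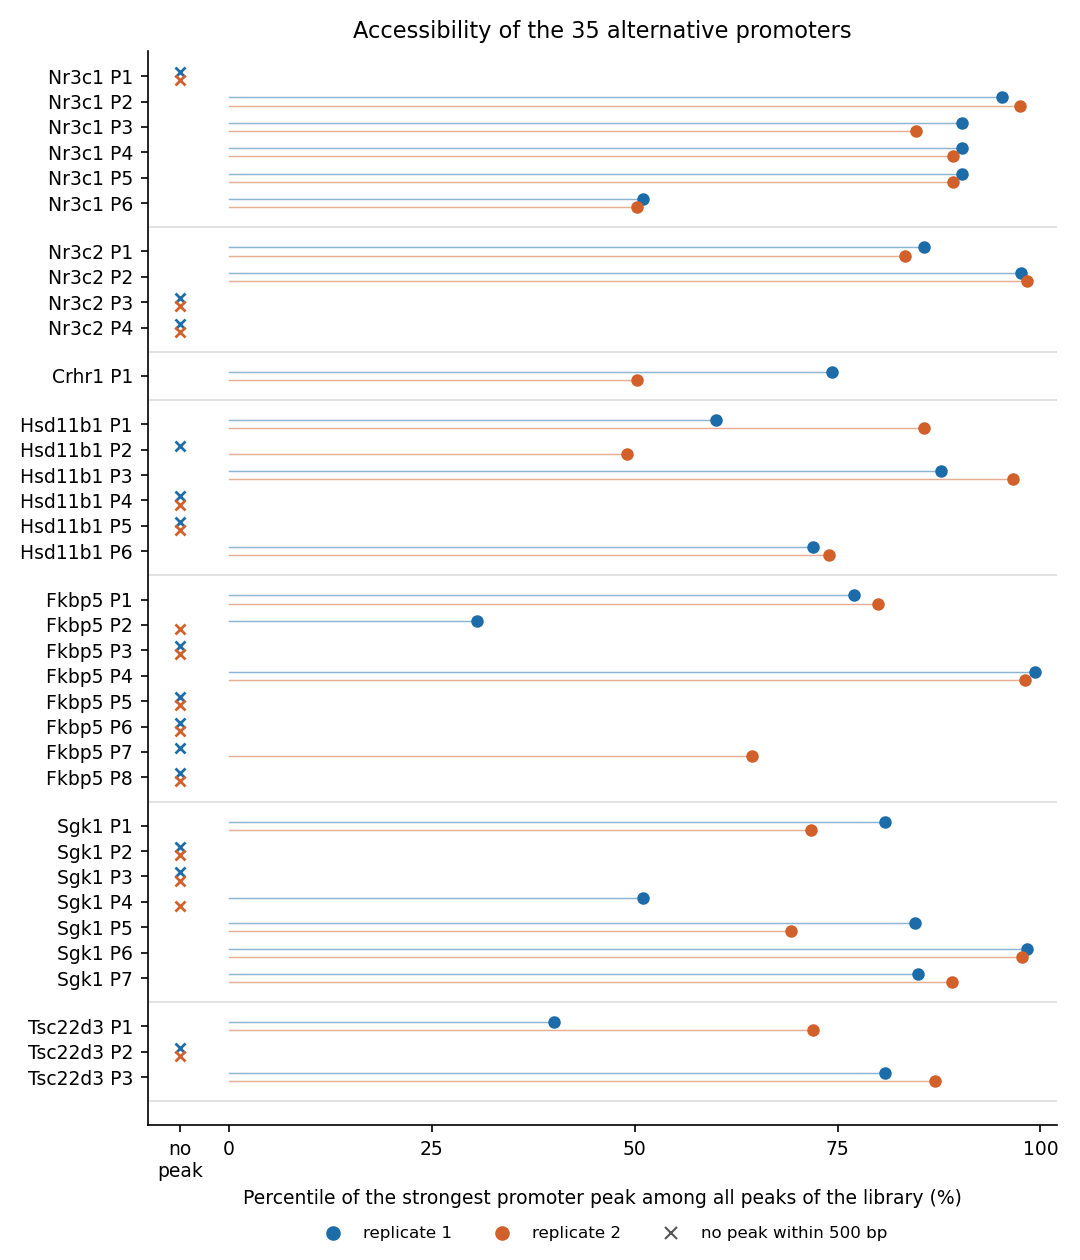
Percentile of the strongest peak within 500 bp of each of the 35 alternative promoters, among all peaks of the library, in replicate 1 (blue) and replicate 2 (orange); a cross marks a promoter without a peak. The 19 promoters open in both libraries carry a dot of each colour, and 12 carry a cross of each colour.

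Nr3c1 (ENSMUSG00000024431.15, chr18:39410545-39519421, minus strand) encodes the glucocorticoid receptor and had 6 alternative promoters, of which 5 were open in both libraries. Promoter 1, the annotated 5′ end, had no peak in either library. Promoter 2, 28120 bp into the gene, had the strongest peak, whose signal was 8.09 in replicate 1 and 4.15 in replicate 2. It lay 300 bp upstream of the start, at chr18:39491601-39491820 in replicate 1. Promoters 3, 4 and 5 shared a peak of signal 4.67 in replicate 1, while in replicate 2 promoter 3 had a peak of 1.28 and promoters 4 and 5 shared one of 1.63. That shared block held 25 footprints in replicate 1, footprints being short protected stretches inside accessible DNA as the authors called them. In replicate 2 the peak of promoter 3 held 10 and the one shared by promoters 4 and 5 held 7. Promoter 6, at the downstream end of the cluster, had 0.843 and 0.485. Promoter 2 exceeded the next promoter 1.73-fold in replicate 1 and 2.54-fold in replicate 2, and promoter 6 was the weakest open one in both. With a window of 250 bp the strongest peak of promoter 2 is no longer counted. The strongest promoter peak of Nr3c1 is then, in replicate 1, the one that promoters 3, 4 and 5 share, at percentile 90.3. In replicate 2 it is the one that promoters 4 and 5 share, at percentile 89.2.

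Nr3c2 (ENSMUSG00000031618.13, chr8:76899442-77245012, plus strand) encodes the mineralocorticoid receptor. Of its 4 promoters, 2 were open in both libraries and promoters 3 and 4 had no peak in either. Promoter 2, 2846 bp downstream of the first start, reached 11.4 in replicate 1 and 5.11 in replicate 2. Promoter 1 had 3.17 and 1.2. The ratio of promoter 2 to promoter 1 was 3.59 in replicate 1 and 4.26 in replicate 2. Promoter 1, a CpG-rich start, had its peak over the start itself with 19 footprints in replicate 1 and 10 in replicate 2.

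The peak of promoter 2 is printed because it was the strongest of both receptor genes in both libraries (chr8:76901981-76902200, plus strand, upstream of the start). Capitals mark bases inside footprints of both libraries, and the bases are the C57BL/6J reference of GRCm38.p6, as in all sequences printed here.
Nr3c2 promoter 2: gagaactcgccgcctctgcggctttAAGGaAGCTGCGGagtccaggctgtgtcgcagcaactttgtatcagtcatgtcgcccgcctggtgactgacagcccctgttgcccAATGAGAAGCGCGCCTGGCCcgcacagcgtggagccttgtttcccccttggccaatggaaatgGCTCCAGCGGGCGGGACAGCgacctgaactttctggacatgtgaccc
In these 220 bases, 52 lay in footprints of both libraries, in 4 runs, and 14 CpG dinucleotides and 1 match to GGGCGG, the core bound by Sp and KLF factors, were present on either strand.

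Crhr1 (ENSMUSG00000018634.10, chr11:104132855-104175523, plus strand) encodes a receptor for corticotropin-releasing hormone (CRH), the peptide that starts the stress axis. It had 1 annotated promoter, whose peak had 1.7 in replicate 1 and 0.485 in replicate 2. These were percentiles 74.3 and 50.3 of all peaks. Among genes with a promoter peak, Crhr1 stood at percentile 18.7 in replicate 1 and 8.99 in replicate 2, the lowest of the 7 genes in both libraries.

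Hsd11b1 (ENSMUSG00000016194.14, chr1:193221634-193264075, minus strand) encodes 11β-hydroxysteroid dehydrogenase type 1, which regenerates active corticosterone inside cells. Of its 6 promoters, 3 were open in both libraries. Promoter 3 was strongest, at 3.69 in replicate 1 and 3.47 in replicate 2. Promoter 6, the start of a retained-intron transcript, had 1.55 and 0.842, and promoter 1, the 5′ end, had 1.06 and 1.34. Those weaker promoters changed places between the libraries, whereas promoter 3 led both. Promoter 2 had a peak of 0.473 in replicate 2 only, and promoters 4 and 5 had none. The Hsd11b1 promoter 3 window was poor in CpG, with an observed over expected ratio of 0.184 and 49.2% GC.

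Fkbp5 (ENSMUSG00000024222.17, chr17:28399094-28517527, minus strand) encodes a co-chaperone that lowers the hormone affinity of the glucocorticoid receptor and is itself induced by it. It had 8 promoters, the most of the 7 genes, and 2 were open in both libraries. Promoter 4, 31378 bp into the gene, reached 16.6 in replicate 1 and 4.72 in replicate 2. Promoter 1, the annotated 5′ end, had 1.91 and 1.04. Promoter 4 exceeded it 8.67-fold and 4.52-fold, the widest gap between the strongest and next promoter of any of the genes in each library. Promoter 2 had a peak of 0.539 in replicate 1 only and promoter 7 a peak of 0.652 in replicate 2 only, and promoters 3, 5, 6 and 8 had none. A stronger peak lay just outside the window of promoter 1, 514 bp upstream of its start (chr17:28518041-28518280), with 8.56 in replicate 1 and 2.69 in replicate 2. The ratios above leave this peak out, and with it the gap would be narrower than at Nr3c2 in both libraries. The upstream part of the promoter 4 peak is printed because it was the strongest promoter peak of the 7 genes in replicate 1 (chr17:28486150-28486300, minus strand; capitals as above).
Fkbp5 promoter 4: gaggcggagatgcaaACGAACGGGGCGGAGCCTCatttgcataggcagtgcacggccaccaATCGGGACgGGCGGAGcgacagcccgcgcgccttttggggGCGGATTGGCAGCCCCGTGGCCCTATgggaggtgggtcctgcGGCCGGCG
Of these 151 bases, 68 lay in footprints of both libraries in 5 runs, with 17 CpG dinucleotides and 3 GGGCGG matches.

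Sgk1 (ENSMUSG00000019970.15, chr10:21882184-21999903, plus strand) encodes a kinase that is induced by both receptors and acts on ion channels. It had 7 promoters, 4 of them open in both libraries. Promoter 6, 112482 bp downstream of the first start, had 13.2 in replicate 1 and 4.27 in replicate 2. It led the next promoter, number 7, which had 2.98 and 1.63. Promoter 5 had 2.92 and 0.738, and promoter 1, at the far 5′ end, had 2.33 and 0.79. Promoter 4 had a peak of 0.843 within 500 bp in replicate 1 only, and promoters 2 and 3 had none. A replicate 2 peak of 0.617 overlapped that of promoter 4 but lay outside the window. A pair of peaks near promoters 4 and 5 fell between 500 bp and 1 kb from a start. The first, 663 bp away, had 3.46 and 2.27, and the second, 570 bp away, had 4.41 and 1.37. The upstream part of the promoter 6 peak is printed as the second strongest promoter of the 7 genes in replicate 1 (chr10:21994461-21994665, plus strand; capitals as above).
Sgk1 promoter 6: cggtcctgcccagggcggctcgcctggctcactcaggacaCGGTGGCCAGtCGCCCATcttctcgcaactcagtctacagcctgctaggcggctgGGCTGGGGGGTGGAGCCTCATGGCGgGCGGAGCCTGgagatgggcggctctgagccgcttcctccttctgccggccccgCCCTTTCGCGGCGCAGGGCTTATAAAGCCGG
Of these 205 bases, 83 lay in footprints of both libraries in 5 runs, with 17 CpG dinucleotides and 4 GGGCGG matches.

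Tsc22d3 (ENSMUSG00000031431.13, chrX:140539528-140600659, minus strand) encodes GILZ, a leucine zipper protein induced by glucocorticoids. Promoter 3 of its 3 promoters, 57472 bp into the gene, had 2.32 in replicate 1 and 1.44 in replicate 2. Promoter 1 had 0.661 and 0.796 and promoter 2 had no peak. Promoter 3 exceeded promoter 1 3.51-fold and 1.8-fold, and stood at percentiles 24.9 and 31.6 of genes with a promoter peak.

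By the percentile of the strongest promoter among all peaks, Fkbp5 averaged 98.7 ± 0.86, Nr3c2 98 ± 0.585 and Sgk1 98 ± 0.501 (SD, n = 2 libraries each). The ranges of these genes overlapped. Nr3c1 averaged 96.4 ± 1.63 and Hsd11b1 92.2 ± 6.3, again with overlapping ranges. Tsc22d3 averaged 83.9 ± 4.34, and Crhr1 averaged 62.3 ± 17, below the other 6 genes in each library. The upper 3 changed order between libraries: Fkbp5, Sgk1, Nr3c2 in replicate 1 and Nr3c2, Fkbp5, Sgk1 in replicate 2. The lower 4, from Nr3c1 through Hsd11b1 and Tsc22d3 to Crhr1, kept theirs. With a window of 250 bp, Nr3c1 (90.3 in replicate 1 and 89.2 in replicate 2) stood above Hsd11b1 (87.7) in replicate 1 and below it (96.6) in replicate 2. Among genes with a promoter peak, Nr3c1 was at percentile 64.8 in replicate 1 and 71.3 in replicate 2, and Fkbp5 at 94.4 and 76.9. Of the 6 genes in the RefSeq promoter table, which holds windows around each start, 5 had their strongest peak in such a window in both libraries, and Tsc22d3 did not.

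The deposited false discovery rates (FDR) of the cut rate, listed where under 0.05, came from the same alignments as the peaks, so they are not an independent check. In the 19 promoters with a peak in both, the share of the window under that FDR had a median of 77.9% in replicate 1 (17.5% to 100%) and 73.2% in replicate 2 (18.5% to 100%). In the 12 promoters with a peak in neither, it was 0% in both libraries. The highest −log10 FDR was 146 in replicate 1 and 126 in replicate 2 at Fkbp5 promoter 4, and 12 and 4.25 at Crhr1. The bin with the highest value lay upstream of the start at Nr3c1 (370 and 390 bp), Nr3c2 (190 and 170 bp), Crhr1 (110 bp in both), Fkbp5 (30 and 50 bp), Sgk1 (50 bp in both) and Tsc22d3 (10 and 50 bp). At Hsd11b1 it lay 210 bp downstream in both libraries.

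**Figure D2:**
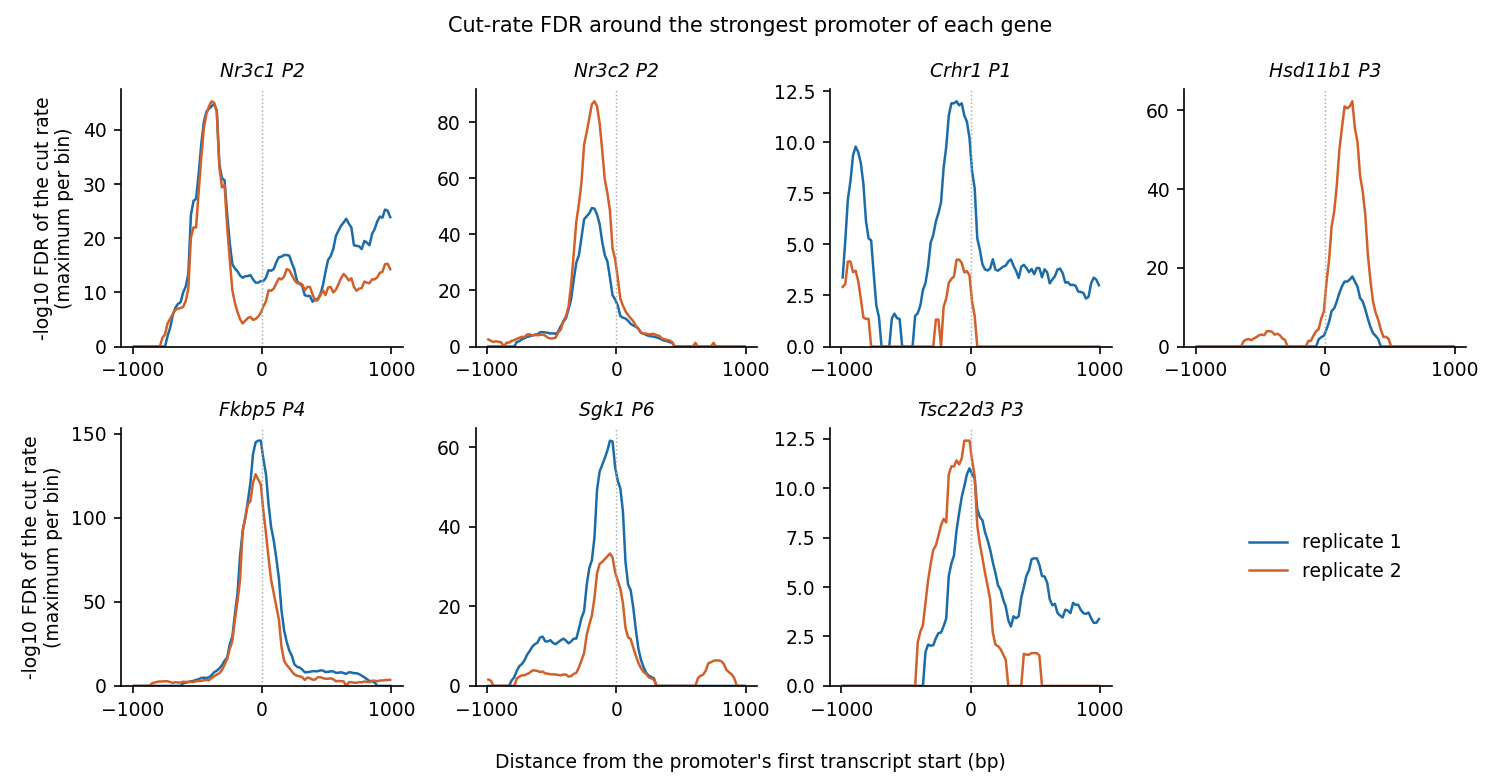
Highest −log10 FDR of the cut rate per 20-bp bin (y axis) against distance from the first start of each gene's strongest promoter (x axis, bp, 1000 on either side), in replicate 1 (blue) and replicate 2 (orange); bases not listed are drawn at 0, and each panel has its own y axis. The profile is a single sharp rise at Fkbp5, reaching 146 and 126, and lies 210 bp downstream of the start at Hsd11b1.

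The promoter windows also differed in base composition. The 19 open in both libraries had a median CpG observed over expected of 0.639 (0.177 to 1.01) and a median GC of 55.5%. The 12 with a peak in neither had 0.236 (0.118 to 0.351) and 44.9%. The ranges overlapped: the open Hsd11b1 promoters 1, 3 and 6 had 0.184, 0.184 and 0.177. Whether composition plays a part in the peaks was not tested.

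Distal peaks, over 1 kb from every annotated start and within the gene or 50 kb of it, numbered 70 in replicate 1 and 103 in replicate 2. In the authors' shorter, stricter lists they numbered 35 and 64. A locus can hold peaks that belong to a neighbouring gene, and the loci of Fkbp5 and Hsd11b1 each held 5 other protein-coding genes. The median gene of the 7 had 11 distal peaks, as the mean of both libraries, and 5.27 per 100 kb. All protein-coding genes had medians of 5.5 and 4.

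Nr3c2, the longest of the genes, had 14 distal peaks in replicate 1 and 25 in replicate 2 (19.5 ± 7.78, SD, n = 2). Nr3c1 had 10 and 12 (11 ± 1.41). Per 100 kb the receptors had 4.38 (Nr3c2) and 5.27 (Nr3c1), at percentiles 54.6 and 65.2 of all genes. Distal peaks at Nr3c1 were weak, with a median percentile among peaks of 22.7 and 31.6, against 41.1 and 44.8 for all distal peaks. The strongest seen in both libraries, by the smaller percentile of both, was an intronic peak at chr18:39460921-39461100 with 1.31 and 0.577. The next, in an exon of the neighbour Arhgap26 (chr18:39371041-39371920), had 0.927 and 0.629, the higher value of the pair in replicate 2. At Nr3c2 the strongest pair, ranked by the smaller percentile of both libraries, lay in its introns, chr8:77051601-77052140 with 0.935 and 0.785 and chr8:77051062-77051560 with 0.638 and 0.548. A site in an intron of the neighbour Arhgap10 (chr8:77256541-77256760) had 0.631 and 1.54, the highest distal value of Nr3c2 in replicate 2. At both receptor genes every distal peak was weaker than the strongest promoter of the gene in both libraries.

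Crhr1 had 9 distal peaks in replicate 1 and 18 in replicate 2 (13.5 ± 6.36, SD, n = 2). The mean was 9.46 per 100 kb, percentile 92.1 of all genes and the highest of the 7, although in replicate 1 alone Fkbp5 was denser (6.87 per 100 kb at Fkbp5, 6.31 at Crhr1). Intronic peaks at chr11:104171581-104171800, with 3.65 and 1.53, and at chr11:104158001-104158240, with 3.53 and 1.83, exceeded the Crhr1 promoter (1.7 and 0.485) in both libraries. All 9 distal peaks of replicate 1 held a footprint, as did 14 of 18 in replicate 2, against 75.7% and 78.9% of all distal peaks.

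Hsd11b1 had 4 and 7 distal peaks, 3.86 per 100 kb, the lowest density of the 7 genes. Its strongest, in an intron shared with Lamb3 at chr1:193255601-193255780, had 2.4 in replicate 1 and 1.87 in replicate 2. The next by the smaller percentile of both libraries, in Traf3ip3 (chr1:193189223-193189680), had 1.03 and 0.554. A site in an intron of Lamb3 (chr1:193305509-193305720) had 0.957 and 1.03, above the Traf3ip3 site in replicate 2.

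Fkbp5 had 15 distal peaks in each library, 6.87 per 100 kb, at percentile 80.2 of all genes. The strongest lay upstream of the gene, 10554 bp from its nearest start (chr17:28528081-28528280), with 7.31 in replicate 1 and 2.38 in replicate 2. An intronic peak at chr17:28407501-28407680 had 4.79 and 2.28. They stood at percentiles 94.4 and 93.9, and 90.6 and 93.4, of all peaks. Sgk1 had 8 and 14 distal peaks. The strongest, intergenic and downstream at chr10:22010241-22010440, had 4.32 and 2.23, and an intronic one at chr10:21923561-21923940 had 1.74 and 0.865. Tsc22d3 had 10 and 12 distal peaks, 6.83 per 100 kb. Its strongest, downstream of the gene at chrX:140520281-140520500, had 3.02 and 1.68, and exceeded the strongest Tsc22d3 promoter (2.32 and 1.44) in both libraries. The next, at chrX:140511121-140511400, had 1.38 and 0.906. Of the 7 genes, Crhr1 and Tsc22d3 were the ones whose strongest distal peak exceeded their strongest promoter peak in both libraries.

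**Figure D3:**
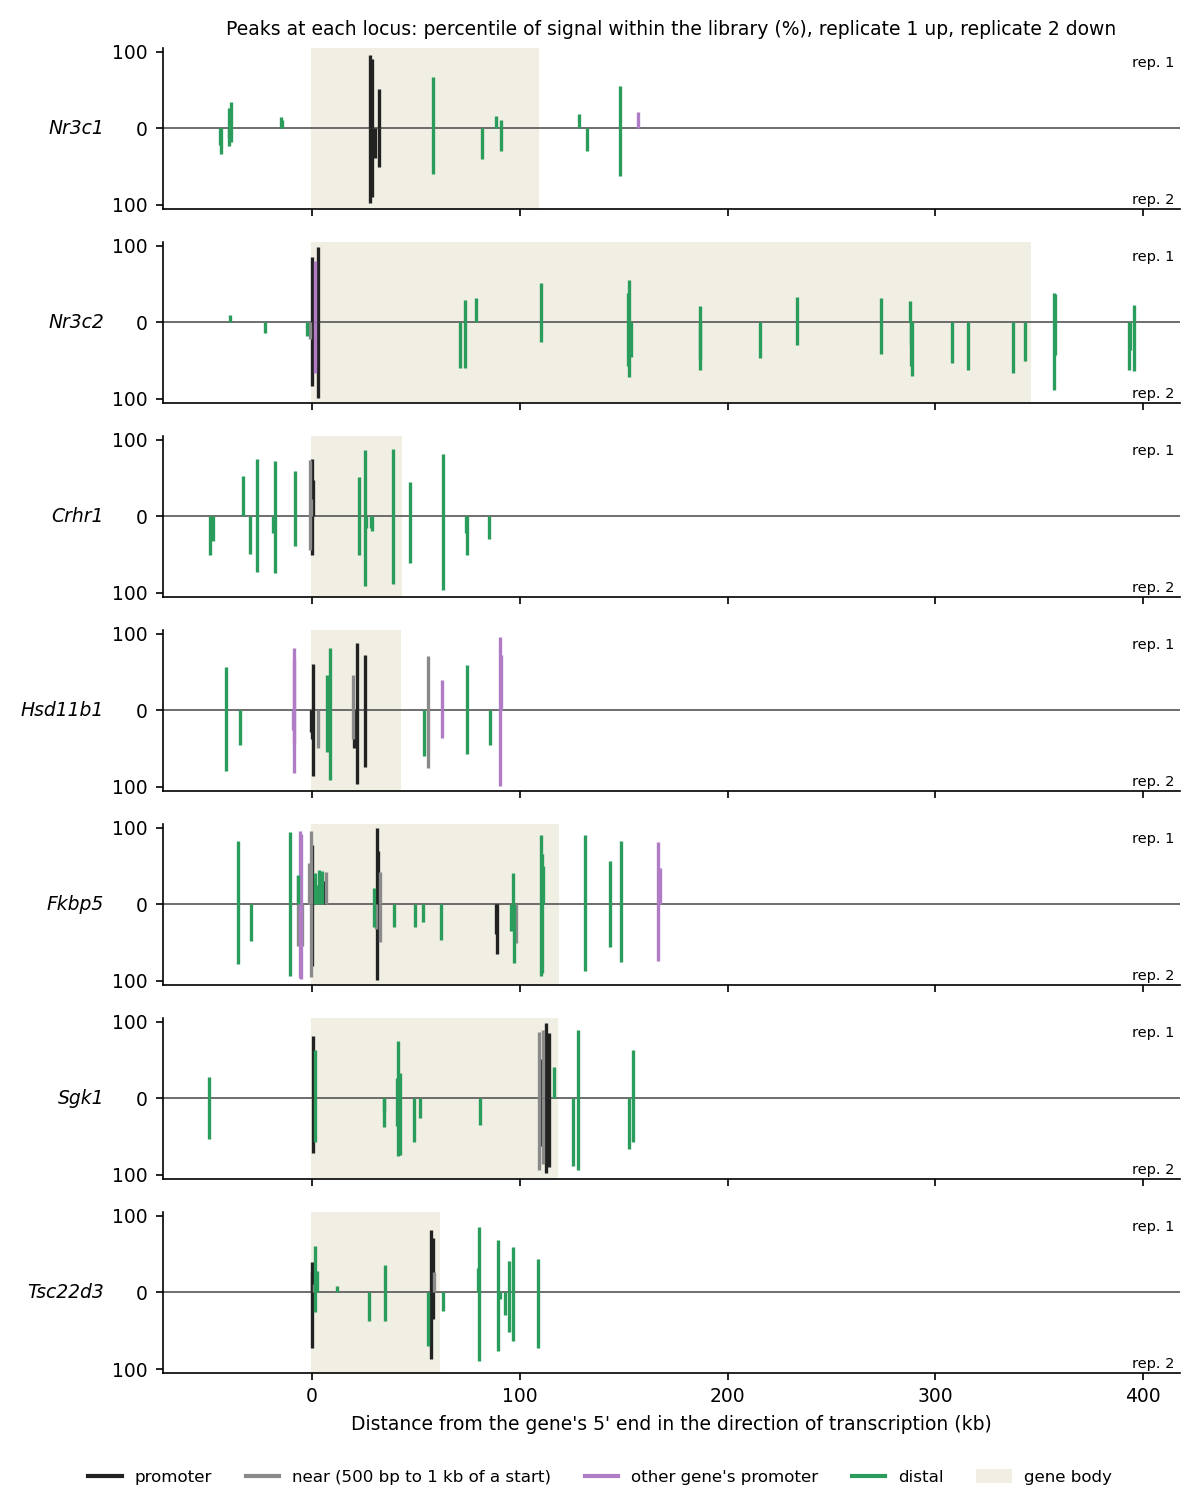
Peaks at each of the 7 loci by distance from the gene's 5′ end in the direction of transcription (x axis, kb); height is the percentile of signal within the library (0 to 100), drawn upward for replicate 1 and downward for replicate 2, coloured by class, with the gene body shaded. Nr3c1, Hsd11b1, Fkbp5, Sgk1 and Tsc22d3 show their tallest promoter lines well inside the gene, and Crhr1 shows 2 distal lines in its body taller than its promoter.

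Merged across libraries, the distal peaks formed 122 sites, of which 47 were in both libraries, 21 in replicate 1 only and 54 in replicate 2 only. Of the 70 distal peaks of replicate 1, 49 (70%) were overlapped by a peak of replicate 2, against 68.9% of all its distal peaks. Of the 103 of replicate 2, 49 (47.6%) were overlapped, against 42.7%. These shares were near those of the whole libraries. Sites in both libraries had a median percentile of 56.5 in replicate 1 and 61.7 in replicate 2, and sites in 1 library only had 31.9 in replicate 1 and 38.9 in replicate 2.

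Footprints lay in 52 of 70 distal peaks in replicate 1 (74.3%, against 75.7% of all distal peaks) and in 83 of 103 in replicate 2 (80.6%, against 78.9%). In promoter peaks they lay in 27 of 31 (87.1%, against 85%) and 29 of 34 (85.3%, against 80.4%). Per kb of distal peak there were 9.89 footprints in replicate 1 and 9.25 in replicate 2 at the 7 loci, against 10.3 and 9.35 over all distal peaks. On these measures the loci lay near the whole libraries.

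**Figure D4:**
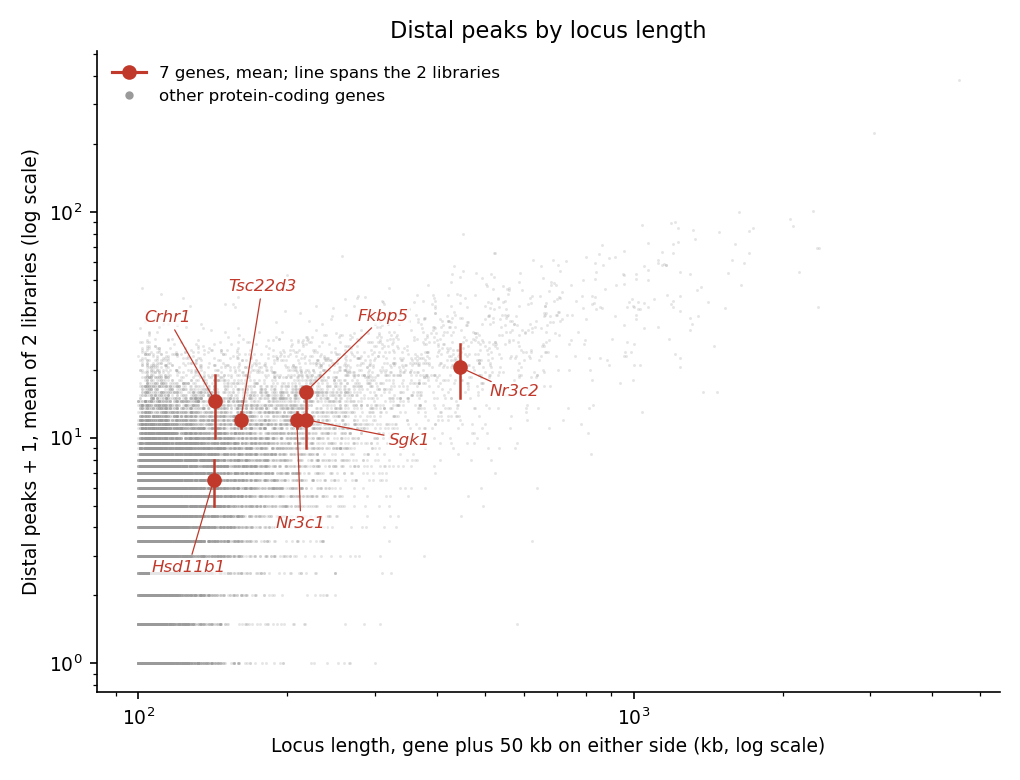
Distal peaks plus 1, mean of 2 libraries (y axis, log scale), against locus length in kb, gene plus 50 kb on either side (x axis, log scale), for the 7 genes (red; the line spans both libraries) and all other protein-coding genes (grey). The red points lie among the grey ones, from 5.5 distal peaks at Hsd11b1 to 19.5 at Nr3c2.

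Peak sequences were searched on both strands for the core of the glucocorticoid response element, GNACANNNTGTNC, which reads the same on either strand. It was found in 3 of 70 distal peaks in replicate 1 (4.29%) and 4 of 103 in replicate 2 (3.88%), against 0.646% and 0.822% of all distal peaks. In promoter peaks it was found in 0 of 31 and 0 of 34, against 0.352% and 0.415%. In the shorter lists 0 and 3 distal peaks held it. With so few matches, 1 peak moves the members' share by more than the whole share of all peaks. Over all peak classes there were 11 matches at the 7 loci, 8 of them at Fkbp5, 2 at Tsc22d3 and 1 at Nr3c2. Only 3 of the 11 lay in peaks of both libraries.

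Those 3 and the one exact match to the full inverted repeat are printed with flanking bases, in the gene's direction and with the matched bases in capitals. The exact match, singled out after its values were seen, lies in an Fkbp5 intron (chr17:28420307-28420349, minus strand).
Fkbp5 intron: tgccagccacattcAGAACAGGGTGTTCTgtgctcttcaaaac
Its peak was called in replicate 2 only, at 0.929, with a footprint over the match. The highest −log10 FDR at the site was 11.2 in replicate 2, and in replicate 1 no base there was under 0.05. Introns of Fkbp5 are known to hold response elements for the receptor. The next pair lies upstream of Fkbp5, at chr17:28518165-28518207 and chr17:28523163-28523205 (minus strand).
Fkbp5 upstream, near promoter 1: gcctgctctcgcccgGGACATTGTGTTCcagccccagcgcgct
Fkbp5 upstream, at the promoter of E230001N04Rik: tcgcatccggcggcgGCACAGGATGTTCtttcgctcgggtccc
The first lay in a peak of 8.56 in replicate 1 and 2.69 in replicate 2 and had 3 mismatches to the full repeat, and the second lay in a peak of 8.17 and 3.25 and had 2 mismatches. Both peaks were strong in both libraries, and neither match lay in a footprint of either library. The fourth lies downstream of Tsc22d3 (chrX:140505951-140505993, minus strand).
Tsc22d3 downstream: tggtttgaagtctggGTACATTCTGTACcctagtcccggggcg
Its peak had 0.669 and 0.502, with a footprint over the match in replicate 2 only and 4 mismatches to the full repeat. A match is a run of letters and not evidence of binding.

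CTCF, which marks insulators and loop anchors, was searched as CCANNAGNNGGC on both strands. In distal peaks it was found in 10% of 70 in replicate 1 and 11.7% of 103 in replicate 2, against 9.47% and 7.9% of all distal peaks. In promoter peaks it was found in 5 of 31 (16.1%) and 4 of 34 (11.8%), against 4.54% and 4.39%. Of 22 matches at the 7 loci, 7 lay in distal sites of both libraries with a footprint over the match in both, 4 of them at Fkbp5. They are printed because footprints of both libraries covered them, with the match in capitals, in the order chr17:28373980-28374021 (plus strand), chr17:28386360-28386401 (plus), chr17:28528168-28528209 (minus), chr17:28553225-28553266 (minus), chr10:22010306-22010347 (minus), chr11:104195923-104195964 (plus) and chr11:104196014-104196055 (minus).
Fkbp5 downstream, far: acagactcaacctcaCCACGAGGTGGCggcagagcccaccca
Fkbp5 downstream, close: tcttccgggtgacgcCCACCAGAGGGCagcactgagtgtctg
Fkbp5 upstream, close: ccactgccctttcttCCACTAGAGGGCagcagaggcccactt
Fkbp5 upstream, far: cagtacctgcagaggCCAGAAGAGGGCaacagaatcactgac
Sgk1 downstream: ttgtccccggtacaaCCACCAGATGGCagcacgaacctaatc
Crhr1 downstream, first: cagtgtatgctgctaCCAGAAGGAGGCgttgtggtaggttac
Crhr1 downstream, second: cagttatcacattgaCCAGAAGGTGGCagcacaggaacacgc
At Fkbp5 the matches downstream of the gene read along the plus strand and those upstream read along the minus strand. The close upstream and Sgk1 matches lay in the strongest distal site of their gene. The site that held both Crhr1 matches had 2.35 in replicate 1 and 3.39 in replicate 2, the highest distal value of Crhr1 in replicate 2.

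Of the other motifs searched on both strands, TGANTCA, bound by AP-1, was in 0 of 70 distal peaks in replicate 1 and 6 of 103 (5.83%) in replicate 2, against 6.18% and 8.41% of all distal peaks, and in 3.23% and 5.88% of promoter peaks, against 3.76% and 4.51%. CAGATG, an E-box bound by NeuroD factors, was in 22.9% and 23.3% of distal peaks, against 23.7% and 29%, and in 22.6% and 20.6% of promoter peaks, against 12.6% and 13.7%. These were 7 promoter peaks in each library. GGGCGG was in 21.4% and 14.6% of distal peaks, against 9.08% and 4.95%, and in 61.3% and 52.9% of promoter peaks, against 51.1% and 43.8%. The cyclic AMP response element TGACGTCA was in none of the distal or promoter peaks, against 0.286% and 0.27% of all distal peaks and 2.04% and 2.01% of all promoter peaks.

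Partner genes of the pathway were read by the same promoter rule from 6 lists with 67 genes, of which 49 (73.1%) were open in both, against 63.2% of all genes. All 9 receptor chaperones were, at a median of 14.8 in replicate 1 and 6.92 in replicate 2, as were all 11 coregulators, with 6.78 and 3.1. Over all genes with such a peak the medians were 5.62 and 2.52. Hsp90aa1, an isoform of the chaperone that holds the receptors ready for hormone, had 21 and 6.44, an example chosen after its values were seen. Of other glucocorticoid-induced genes, 18 of 20 were open in both libraries, and the lipid-droplet gene Plin4 and the lipocalin Lcn2 had none.

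On the peptide side of the stress axis few promoters were open. Of 11 genes, 1, the vasopressin receptor gene Avpr1a, had a promoter peak in both libraries, with 0.843 and 0.352. The CRH receptor gene Crhr2 (0.775), the urocortin gene Ucn (0.608), the vasopressin receptor gene Avpr1b (0.577) and Crh itself (0.365) had one in replicate 1 only. Crhbp, Ucn2, Ucn3, Pomc, Avp and Mc2r had none. Of 12 genes of steroid synthesis and metabolism, 8 (66.7%) were open in both libraries, near the 63.2% of all genes. Hsd3b1, Cyp21a1, Cyp11b1 and Cyp11b2, which encode enzymes of adrenal steroid synthesis, had no promoter peak. Star, Cyp11a1 and Cyp17a1, which also act in steroid synthesis and were named after their values were seen, were open in both, with 0.957, 0.714 and 1.81 in replicate 1 and 0.525, 0.461 and 0.871 in replicate 2. Among other steroid receptors, Pgr and Esr1 had a promoter peak in both libraries, and Esr2 had one in replicate 1 only. Pgr, the progesterone receptor gene, had 0.957 in replicate 1 and 0.588 in replicate 2, and Esr1, an oestrogen receptor gene, 0.942 and 0.346. Nr3c1 (8.09 and 4.15) and Nr3c2 (11.4 and 5.11) stood above them in both libraries.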

How the data were processed

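DNase-seq values came from 2 libraries of 1 group, grouped by the labels. Per the listing beside each library's files, the authors made them from 1 filtered mm10 alignment per library, unpooled. Aligner, peak caller and versions remain not given in the sources used here, and the deposited peak signal has no stated scaling, so counting error cannot be given, and the score, p and q columns of the peak lists hold placeholders. The deposited footprint score is 0.01 in every row, so only positions were used. The deposited FDR (q-value) files list runs of bases under 0.05.

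The longer peak list of each library was used, with GENCODE M21 starts and the GRCm38.p6 genome. Some peaks of a list overlap each other and were kept. Overlap meant at least 1 bp. Python 3.11.15, numpy 2.4.6, pandas 2.3.3, pysam 0.24.0 and matplotlib 3.10.9 were used, and the steps were tested on simulated data. No tests between groups were possible. The members and lists were chosen with earlier results of these data known. All 7 members were named, with each promoter's strongest peak, the 2 strongest distal sites by the smaller percentile of both libraries, every core found in both libraries, and, from each list, the genes without a peak where 5 or fewer, otherwise the 3 strongest and 3 weakest. The 6 peptide-side genes without a peak, and further distal sites at Nr3c2 and Hsd11b1, were named beyond that rule, after their values were seen. A list gene that is withheld is not reported here. Alternatives changed the peak list, number of peaks, windows, locus flank, motif search and library.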

Additional observations from a re-analysis of the deposited data

How the results depend on the processing

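Under the alternatives that kept both libraries, 33 values of the main measures stayed within 1 SD between the libraries, or within 1.5 times for counts, and 12 moved. For single genes 28 stayed and 7 moved. With equal numbers of peaks, the strongest-promoter percentiles of the 7 genes and their median were still ranked in the full lists. They could not move by construction, and they are counted among the values that stayed. All 7 genes kept a promoter peak in both libraries under every alternative run. With the shorter, stricter lists, distal peaks averaged 49.5 (86.5 with the longer lists), peaks with a footprint 86.3% (80%), distal peaks with a core 1.5 (3.5) and the median strongest-promoter percentile 93.7 (96.4). With equal numbers of peaks, 83.6% held a footprint. A promoter window of 250 bp gave a median percentile of 92.2. The gene plus 20 kb gave 57.5 distal peaks and 2 with a core, and the gene body 43.5 and 2, by fewer bases searched. Searching the peak plus 100 bp gave 5.5 peaks with a core, the full repeat with 1 mismatch 0.5, and a 300-bp centred search, chosen after seeing the data, 4.5. Leaving out either library, which moves a mean by less than that SD by construction, gave 70 to 103 distal peaks, 47.6% to 70% overlapped, 78.2% to 81.8% with a footprint, 3 to 4 with a core, 21 open promoters and 49 to 55 pathway genes. No paired analysis was possible because there was 1 group. The unknown depth in reads limits what a missing peak shows.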
